A study of Drosophila melanogaster with 6 samples.

Results

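Active enhancer-type sites without H3K9acS10ph were 375 of the 9559 H3K4me1 peaks called in Kc167 cells, and 375 of the 9529 that lay on the chromosome arms. They were selected on 4 of the deposited peak lists. Each is an H3K4me1 peak on X, 2L, 2R, 3L, 3R or 4 separated by 500 bp or more from every H3K4me3 peak, which shared 1 bp or more with an H3K27ac peak and shared none with an H3K9acS10ph peak. Of the 9529 H3K4me1 arm peaks, 6695 lay nearer than 500 bp to H3K4me3, 2121 lay farther away without H3K27ac, and the other 713 were active enhancer-type sites, of which 338 carried H3K9acS10ph. The H3K4me1, H3K4me3, H3K27ac and H3K9acS10ph calls are therefore not findings here. JIL-1 and H3K27acS28ph were not part of the choice. Distances were limited by the choice, which set a minimum of 500 bp to H3K4me3 and excluded overlap with H3K9acS10ph. Widths and scores were not used directly, but a wide peak is more likely to touch an H3K9acS10ph peak. The choice itself thus favours narrow sites in the comparison with sites that carry H3K9acS10ph. It also required contact with H3K27ac, which a wide peak makes more easily, and so favours wide sites beside those without H3K27ac. Widths and the scores that go with them are given as a description.

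The study immunoprecipitated chromatin of Kc167, a line grown from late female Drosophila melanogaster embryos, with antibodies to H3K9acS10ph, H3K27acS28ph, JIL-1, H3K27ac, H3K4me1 and H3K4me3, and sequenced the DNA (ChIP-seq). Each antibody gave 1 library and 1 deposited peak list, of 3223 to 12295 peaks on the arms. The cells received no treatment in the labels, and all 6 libraries come from a cultured line, so they show the chromatin of that line and not of a tissue. There were no replicates, so no difference given here has a test, and every interval is a 95% interval that covers counting error over sites and not the variation between chromatin preparations. Neighbouring sites are not independent, which these intervals ignore. Read depth is unknown, and a site without a called peak may still carry the mark below the caller's limit or in few of the cells, which cannot be told apart in bulk chromatin.

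Enhancers are stretches of DNA that raise the transcription of a gene from a distance. Their nucleosomes typically carry H3K4me1 (a single methyl group on lysine of the histone H3 tail), and those in use also carry H3K27ac, while H3K4me3 marks the start sites of active genes. H3K9acS10ph and H3K27acS28ph are doubly modified forms of the tail, with an acetylated lysine beside a phosphorylated serine. JIL-1 is a chromosomal kinase of the fly that phosphorylates serine of the H3 tail outside mitosis.

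The sites without H3K9acS10ph were narrower and weaker H3K4me1 peaks than the active sites that carried it. Their median width was 2440 bp (95% order-statistic interval 2126 to 2696), against 4368 bp (4018 to 4827) at the 338 sites with H3K9acS10ph. They were wider than the 2121 sites without H3K27ac, whose median was 1345 bp (1304 to 1389). The narrowest of the 375 measured 667 bp and the widest 12343 bp, and the middle 50% ran from 1342 to 4053 bp. The 2 classes of active sites overlapped widely, since the lower quartile with H3K9acS10ph was 2908 bp. The authors' peak score, which is read here only within a list and rises with the statistical strength of a peak, piled up at 3100. It stood at or above 3100 at 160 of 375 sites without H3K9acS10ph (42.7%, Wilson interval 37.8 to 47.7), at 266 of 338 with it (78.7%, 74.0 to 82.7) and at 242 of 2121 without H3K27ac (11.4%, 10.1 to 12.8). A narrow site offers less length for another peak to touch, so the JIL-1 shares are also given at like widths and in windows of fixed size.

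**Figure D1:**
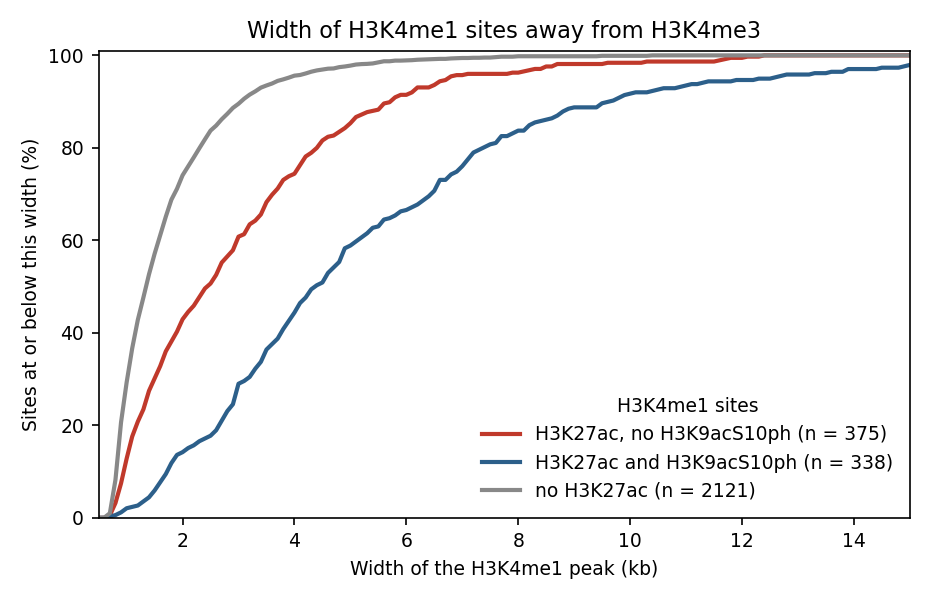
Cumulative share of H3K4me1 sites (y axis, %) by the width of the H3K4me1 peak (x axis, kb) for the 375 active sites without H3K9acS10ph, the 338 with it and the 2121 without H3K27ac. The curve of the sites without H3K9acS10ph lies between the others, with medians of 2440, 4368 and 1345 bp; sites wider than 15 kb lie beyond the axis.

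Width, score and H3K27ac varied together among the 375 sites. Ranked by width, none of the 94 narrowest sites (667 to 1340 bp) reached a score of 3100, and 94.6% of the 93 widest (4068 to 12343 bp) did. H3K27ac covered a median of 97.3% of the length in the 94 narrowest and 43.2% in the 93 widest. The site width is the divisor of this share, which can therefore fall with width without a shorter H3K27ac overlap. The median distance to the nearest H3K9acS10ph peak was 2629 bp in the 94 narrowest and 6951 bp in the 93 widest.

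Most of these sites overlapped a single H3K27ac peak, which often ran beyond the site, since the median width of the H3K27ac was 1692 bp and the median overlapped length was less. The overlap was with 1 H3K27ac peak at 353 of 375 sites (94.1%) and with 2 or more at 22 (5.87%), against 63 of 338 (18.6%) at sites with H3K9acS10ph. The overlapped length had a median of 1185 bp (1112 to 1302), against 2095 bp (1950 to 2369) at sites with H3K9acS10ph. As a share of the site it was similar, 60.7% (56.9 to 66.4) and 55.5% (51.4 to 57.7). The highest H3K27ac score at a site had a median of 816 (617 to 976) without H3K9acS10ph and of 2608 (1867 to 3100) with it, and 26.1% and 46.2% of the sites reached 3100. The H3K27ac overlap was thus shorter and its highest score lower at the sites that lacked H3K9acS10ph. This is a description, since the choice favours narrow sites against those with H3K9acS10ph and H3K27ac was not compared at like widths. The highest score was also more often taken over 2 or more peaks at the sites with H3K9acS10ph. At 44 sites without H3K9acS10ph (11.7%) the H3K27ac peak ran on as far as an H3K4me3 peak, against 27 of 338 (7.99%) with H3K9acS10ph. The difference was 3.75 points (-0.696 to 8.14), an interval that spans both signs. At 47 of the 375 sites (12.5%) the H3K27ac peak reached an H3K9acS10ph peak outside the site. At 55 sites (14.7%) it did at least 1 of these. The other 320 sites had a median width of 2683 bp, and JIL-1 was present at 54.1% of them (48.6 to 59.4).

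JIL-1 was called at 197 of the 375 sites without H3K9acS10ph (52.5%, 47.5 to 57.5). It was called at 250 of 338 active sites with H3K9acS10ph (74.0%, 69.0 to 78.4) and at 650 of 2121 sites without H3K27ac (30.6%, 28.7 to 32.6). The background was 71.8% of all 9529 H3K4me1 arm peaks and 38.7% of the 2834 that lay 500 bp or more from H3K4me3. The kinase was thus called less often at the active sites without H3K9acS10ph than at those with it, and more often than at sites without H3K27ac. The share was 21.4 percentage points below that of sites with H3K9acS10ph (difference -21.4, Newcombe interval -28.1 to -14.4) and 21.9 points above that of sites without H3K27ac (16.5 to 27.2). In all, 36 of the 375 sites (9.60%) held 2 or more JIL-1 peaks, against 92 of 338 (27.2%), 6.92% of H3K4me1 arm peaks 500 bp or more from H3K4me3 and 25.4% of all H3K4me1 arm peaks. In 1000 bp windows at the centre, of equal size at every site, JIL-1 was found at 127 of 375 sites (33.9%) without H3K9acS10ph, at 165 of 338 (48.8%) with it and at 27.3% of sites without H3K27ac. The differences were -14.9 points (-22.0 to -7.72) and 6.62 points (1.62 to 11.9). The windows run beyond narrower sites. Sites of 1000 bp or less made up 12.8%, 2.07% and 29.3% of these classes, in the same order.

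The gap to the sites with H3K9acS10ph was smaller at like widths. Among sites under 1500 bp, JIL-1 was found at 46 of 113 without H3K9acS10ph (40.7%) and at 10 of 20 with it (50%), a difference of -9.29 points (-31.1 to 12.8). From 1500 to under 3000 bp the shares were 49.6% and 64.1% (difference -14.5, -27.8 to -0.264). From 3000 to under 5000 bp they were 59.8% and 73.3% (-13.5, -26.3 to -0.192). At 5000 bp or more they were 70.9% and 83.5% (-12.5, -26.6 to -0.0407). All 4 differences had the same sign, and the interval of the narrowest class included 0. With the shares at sites with H3K9acS10ph weighted to the width classes of the sites without it, the difference was -12.4 points in place of -21.4, and weighted to the score classes it was -13.5 points. Over distance from H3K4me3 the gap was uneven. It was -33.8 points (-45.6 to -19.8) from 500 to under 2000 bp, where 48 of 105 sites without H3K9acS10ph held JIL-1 (45.7%), and -3.22 points (-17.3 to 11) from 2000 to under 5000 bp, where 52 of 79 did (65.8%). From 5000 bp to under 20 kb it was -18.5 points (-29.7 to -6.55), and from 20 kb on -33.4 points (-48.0 to -15.6).

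Against sites without H3K27ac the pattern over widths was another. Under 1500 bp JIL-1 was called at 40.7% of the active sites without H3K9acS10ph and at 21.1% of the sites without H3K27ac (difference 19.6 points, 10.7 to 29.1). From 1500 to under 3000 bp the shares were 49.6% and 36.5% (13.0 points, 3.35 to 22.7). From 3000 to under 5000 bp they were 59.8% and 60.6% (-0.789 points, -13.1 to 11.2), and at 5000 bp or more 70.9% and 78.7% (-7.81 points, -23.8 to 9.28). The higher JIL-1 share of these active sites was thus measured among sites under 3000 bp and was not detectable among wider ones. With the shares of the sites without H3K27ac weighted to the same width classes, the difference was 8.57 points in place of 21.9. Against the 1854 sites without H3K27ac that also lacked H3K9acS10ph it was 24.6 points unweighted (19.1 to 29.98) and 11.7 points weighted.

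**Figure D2:**
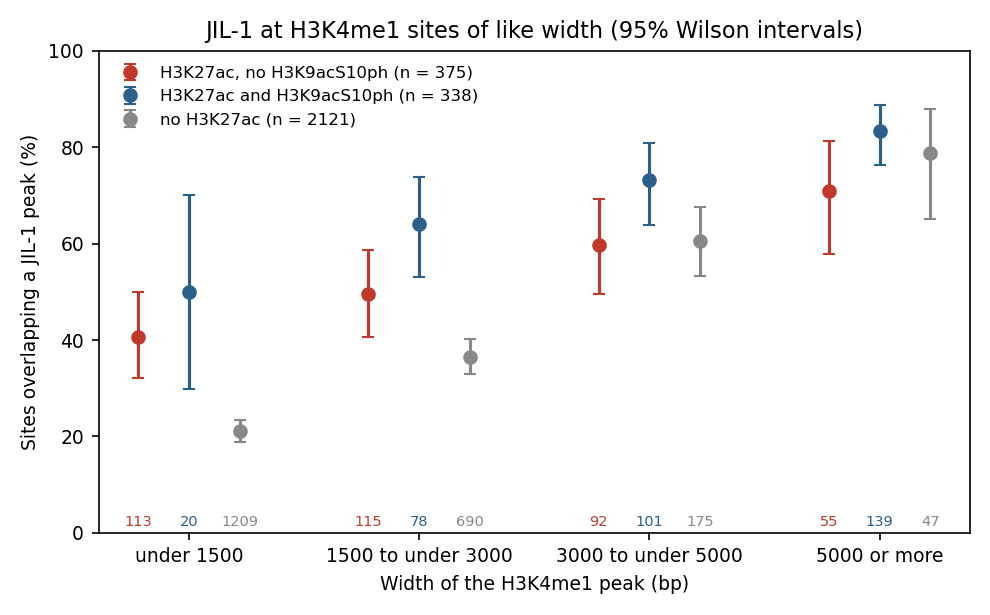
Share of sites overlapping a JIL-1 peak (y axis, %) in 4 classes of H3K4me1 width (x axis, bp), as points with 95% Wilson intervals and the number of sites at the foot. Within each class the sites without H3K9acS10ph lie below those with it (40.7% and 50% at the left, 70.9% and 83.5% at the right), and they exceed sites without H3K27ac in the 2 narrower classes only.

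Counted by length, JIL-1 peaks covered 17.4% of the 1113 kb in the sites without H3K9acS10ph, against 23.3% of the 1791 kb in the sites with it, 16.2% of the 3616 kb in the sites without H3K27ac and 13.8% of the arms as a whole. The covered share at these active sites was thus close to that of sites without H3K27ac. At the midpoint of the H3K4me1 peak, JIL-1 covered 19.2% of the sites without H3K9acS10ph, and averaged over both sides it covered 19.6% at 1 kb, 14.4% at 2 kb, 17.2% at 5 kb and 15.9% at 10 kb. At sites with H3K9acS10ph the values were 30.2% at the midpoint, 23.4%, 17.3% and 15.2% at 1, 2 and 5 kb, and 12.7% at 10 kb. At 3 kb the sites without H3K9acS10ph had 13.9% on the side of lower coordinates and 12.3% on the other side, and those with it 16.6% and 13.9%. JIL-1 calls were thus more frequent at the centre than at 3 kb in both classes. At sites without H3K9acS10ph, however, the 19.2% at the midpoint stood near the 17.2% at 5 kb. With H3K9acS10ph the share fell from 30.2% to 15.2% over the same distance. These values have no intervals.

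**Figure D3:**
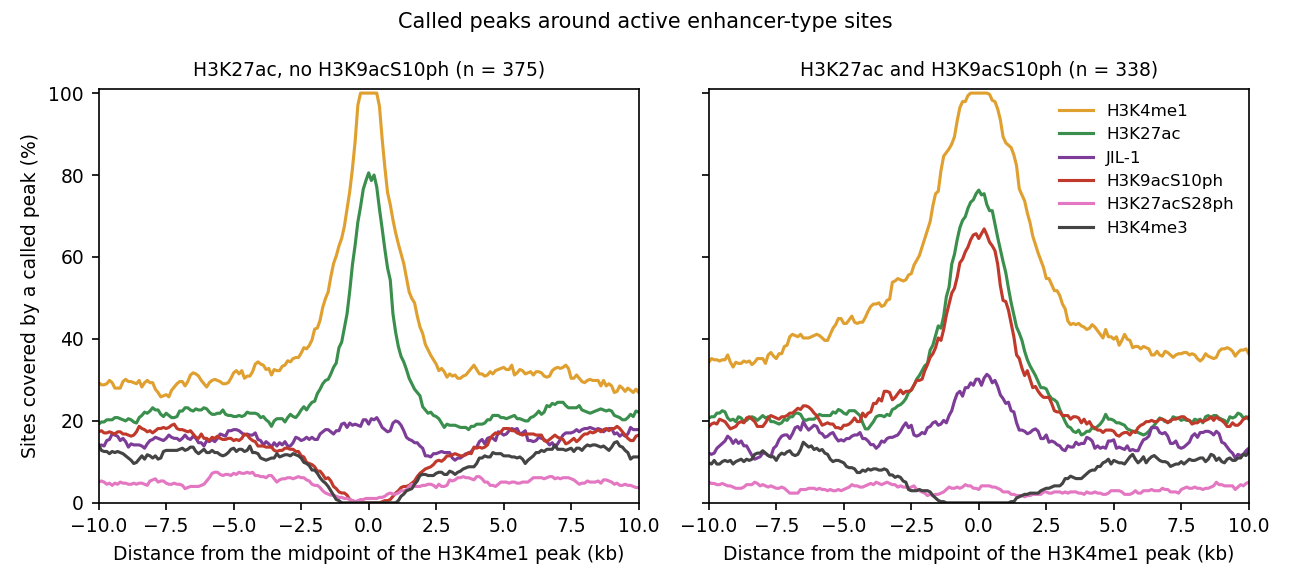
Share of active enhancer-type sites covered by a called peak of each of the 6 lists (y axis, %) at each distance from the midpoint of the H3K4me1 peak (x axis, kb), for sites without H3K9acS10ph (left) and with it (right). JIL-1 stands at 19.2% on the left and 30.2% on the right at the midpoint; the choice of sites itself sets the high H3K27ac and H3K4me1 in both panels, the H3K9acS10ph level in each panel and the absence of H3K4me3 at the midpoint.

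Where JIL-1 was present at a site without H3K9acS10ph, it covered a median of 805 bp (718 to 906) or 30.2% of the site, and at 173 of the 197 sites (87.8%, 82.5 to 91.7) it touched the part that carried H3K27ac. At sites with H3K9acS10ph it touched that part in 239 of 250 cases (95.6%, 92.3 to 97.5), over wider H3K27ac peaks. The 234 JIL-1 peaks involved had a median score of 158 (123 to 215), against 245 (207 to 291) for the 380 JIL-1 peaks at sites with H3K9acS10ph and 163 (159 to 168) for all 12295 JIL-1 arm peaks. The median of the whole list lay within the interval of these 234. JIL-1 was not called at 178 sites. The nearest JIL-1 peak lay a median of 2587 bp (2017 to 3545) from these, under 500 bp at 26 of them (14.6%) and under 5000 bp at 115 (64.6%). At the 88 sites with H3K9acS10ph and without JIL-1 the median was 3422 bp (2431 to 4666). It lay under 500 bp at 6.82% of those and under 5000 bp at 64.8%.

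Sites with JIL-1 were wider and stronger than those without it within the 375. Their median width was 2905 bp (2570 to 3402), against 1824 bp (1632 to 2246), and their median H3K4me1 score was 3100 (2450 to 3100), against 1263 (560 to 1589). The H3K27ac overlap was 1340 bp (1185 to 1490) at sites with JIL-1 and 1053 bp (1004 to 1181) without it. As a share of the site it ran the other way, 57.4% (51.2 to 61.6) and 67.7% (59.3 to 74.4), with overlapping intervals. A wider site touches a JIL-1 peak more easily, so these values are a description. The H3K27ac score did not separate sites with JIL-1 from those without it, with medians of 837 (617 to 1278) and 719 (511 to 976). Neither did the distance to H3K4me3, with 4719 bp (4106 to 5980) and 5636 bp (3692 to 7780), nor that to H3K9acS10ph, with 4978 bp (4063 to 6145) and 5241 bp (3522 to 7220). The JIL-1 share was 38.3% (29.1 to 48.4) among the 94 narrowest sites and 66.7% (56.6 to 75.4) among the 93 widest.

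H3K27acS28ph was called at 9 of the 375 sites (2.40%, 1.27 to 4.50). It was called at 29 of 338 sites with H3K9acS10ph (8.58%, 6.04 to 12.1) and at 27 of 2121 sites without H3K27ac (1.27%, 0.876 to 1.85), against a background of 31.7% of all H3K4me1 arm peaks and 2.29% of those 500 bp or more from H3K4me3. The share without H3K9acS10ph was 6.18 points below that with it (difference -6.18, -9.83 to -2.89), and its difference from the sites without H3K27ac was 1.13 points (-0.142 to 3.26), which includes 0. Of those 2121 sites, 1854 also lacked H3K9acS10ph, and the difference from these was 1.48 points (0.226 to 3.61). The share at sites without H3K9acS10ph was thus near the 2.29% of all sites away from H3K4me3, and the share at sites with it was above that. This background includes both active classes. At the 1854 sites without H3K27ac and H3K9acS10ph the share was 0.917%. In 1000 bp windows H3K27acS28ph was found at 1.60% of the active sites without H3K9acS10ph and at 6.21% of those with it. The difference was -4.61 points (-7.83 to -1.81), and that from the 1854 sites was 1.06 points (0.0855 to 2.92). Of the 9 sites 5 carried JIL-1. Over the 9 sites the highest H3K27acS28ph score had a median of 84.5 and a range from 51.1 to 1301. The median over single peaks of the H3K27acS28ph arm list was 141. The sites on 3R that start at 10925250 and 10935328 had the same score of 772, so 1 peak may be counted at both. The site with 1301 shared only 80 bp with 2 H3K27acS28ph peaks. Neither JIL-1 nor H3K27acS28ph was called at 174 of the 375 sites (46.4%, 41.4 to 51.5), against 79 of 338 with H3K9acS10ph (23.4%), 60.2% of H3K4me1 arm peaks 500 bp or more from H3K4me3 and 25.9% of all H3K4me1 arm peaks.

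The distances to H3K4me3 of the 2 active classes were not distinguishable by their intervals. The median distance was 5150 bp (4188 to 6208) without and 5342 bp (4574 to 6369) with H3K9acS10ph, and 6601 bp (6176 to 7107) at sites without H3K27ac. Under 2000 bp lay 105 of 375 sites (28%), against 78 of 338 (23.1%), a difference of 4.92 points (-1.51 to 11.3). At 20 kb or more lay 65 sites (17.3%), against 49 (14.5%), a difference of 2.84 points (-2.59 to 8.18). The nearest H3K4me3 peak carried H3K9acS10ph at 255 of the 375 sites (68.0%) and at 229 of the 338 (67.8%), a difference of 0.249 points (-6.57 to 7.11). The share was 67.4% over all H3K4me1 arm peaks 500 bp or more from H3K4me3, and 72.6% of all H3K4me3 arm peaks carried H3K9acS10ph.

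The nearest H3K9acS10ph peak lay a median of 5034 bp (4114 to 6145) from the edge of a site, which is a description, since the choice requires that it does not overlap. It lay under 500 bp at 34 sites (9.07%), from 500 to under 2000 bp at 74, from there to under 5000 bp at 76, from there to under 20 kb at 126 and at 20 kb or more at 65 (17.3%). That peak overlapped H3K4me3 in 279 of 375 cases (74.4%), as did 74.2% of all 6873 H3K9acS10ph arm peaks. JIL-1 was called at 41.2% (26.4 to 57.8) of the 34 sites under 500 bp, at 50%, 63.2% and 55.6% of the next 3 classes, and at 43.1% (31.8 to 55.2) of the sites at 20 kb or more. These intervals overlapped. The median width was 1333 bp in the nearest class and 2954 bp in the farthest.

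**Figure D4:**
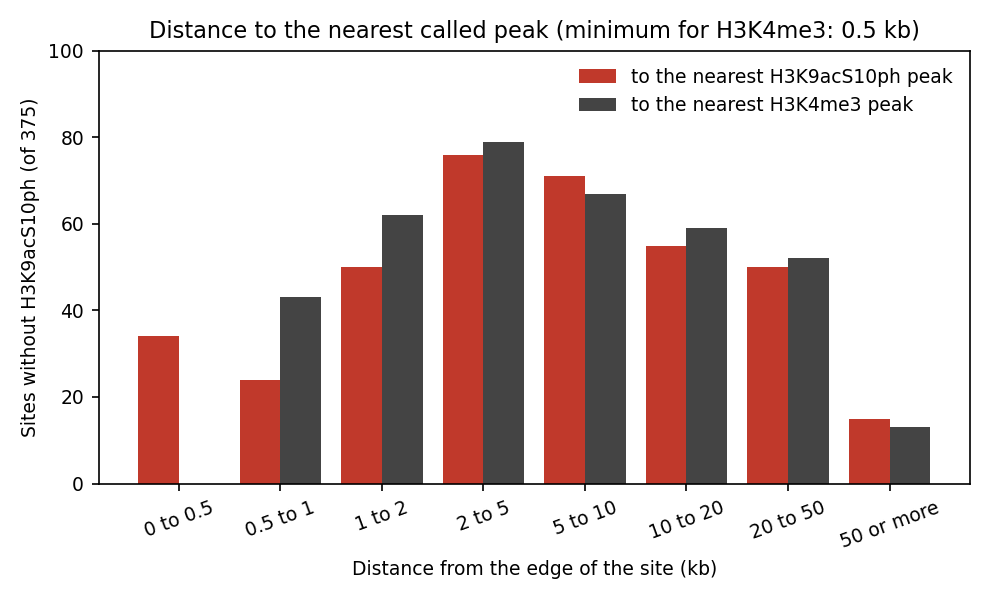
Number of the 375 active sites without H3K9acS10ph (y axis) by the distance from the edge of the site to the nearest H3K9acS10ph and the nearest H3K4me3 peak (x axis, kb, unequal classes). The class of 2 to 5 kb holds 76 and 79 sites, over a span wider than the nearest classes, in which 34 sites have an H3K9acS10ph peak within 0.5 kb and 43 have an H3K4me3 peak at 0.5 to 1 kb.

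Few sites lay at the edges of the definition. Just inside, the 10 sites nearest to H3K4me3 lay 513 to under 600 bp from it, 5 shared only 6 to 87 bp with H3K27ac and 4 had an H3K9acS10ph peak 13 to 96 bp away. Just outside, 15 otherwise eligible H3K4me1 peaks lay 402 to 497 bp from H3K4me3, 8 had H3K27ac 4 to 91 bp away, and 2 active sites shared only 68 and 83 bp with H3K9acS10ph.

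Chromosomes differed in the share of active sites without H3K9acS10ph. It was 61.7% on 2L (92 of 149, 53.7 to 69.2), 59.8% on 2R (76 of 127, 51.1 to 68.0), 55.2% on X (74 of 134, 46.8 to 63.4), 43.2% on 3L (64 of 148, 35.5 to 51.3) and 40.4% on 3R (57 of 141, 32.7 to 48.7). The intervals of 2L and of both arms of chromosome 3 did not overlap. Of all H3K4me1 peaks, H3K9acS10ph overlapped 61.7% on 2L, 73.1% on 2R, 64.6% on X, 68.6% on 3L and 74.7% on 3R. H3K9acS10ph peaks numbered 43.5 per Mb on 2L, 68.5 on 2R, 58.1 on X, 59.4 on 3L and 58.5 on 3R. The part of these levels in the arm differences was not tested. On chromosome 4, a small and largely heterochromatic chromosome, 12 of 14 active sites lacked H3K9acS10ph (85.7%, 60.1 to 96.0), against 363 of 699 on the other arms (51.9%), a difference of 33.8 points (7.86 to 44.7). H3K9acS10ph overlapped 27.4% of all H3K4me1 peaks there, less than on any other arm. H3K9acS10ph peaks numbered 22.8 per Mb, and the 12 sites were narrow, with a median width of 1162 bp.

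JIL-1 was less frequent without H3K9acS10ph than with it on each of the 5 large arms. The shares were 55.4% and 83.3% on X, 43.5% and 73.7% on 2L, 50% and 58.8% on 2R, 59.4% and 75% on 3L, and 63.2% and 77.4% on 3R. The intervals were apart on X (44.1 to 66.2 and 72.0 to 90.7) and on 2L (33.8 to 53.7 and 61.0 to 83.4), and they overlapped on 2R, 3L and 3R. On chromosome 4 JIL-1 was called at 4 of 12 sites without H3K9acS10ph and at 0 of 2 with it. JIL-1 is known to be enriched on the male X, and in these female cells the share at the sites without H3K9acS10ph was 55.4% on X (44.1 to 66.2) and 52.6% on the large autosomal arms (152 of 289), a difference of 2.81 points (-9.85 to 15).

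**Figure D5:**
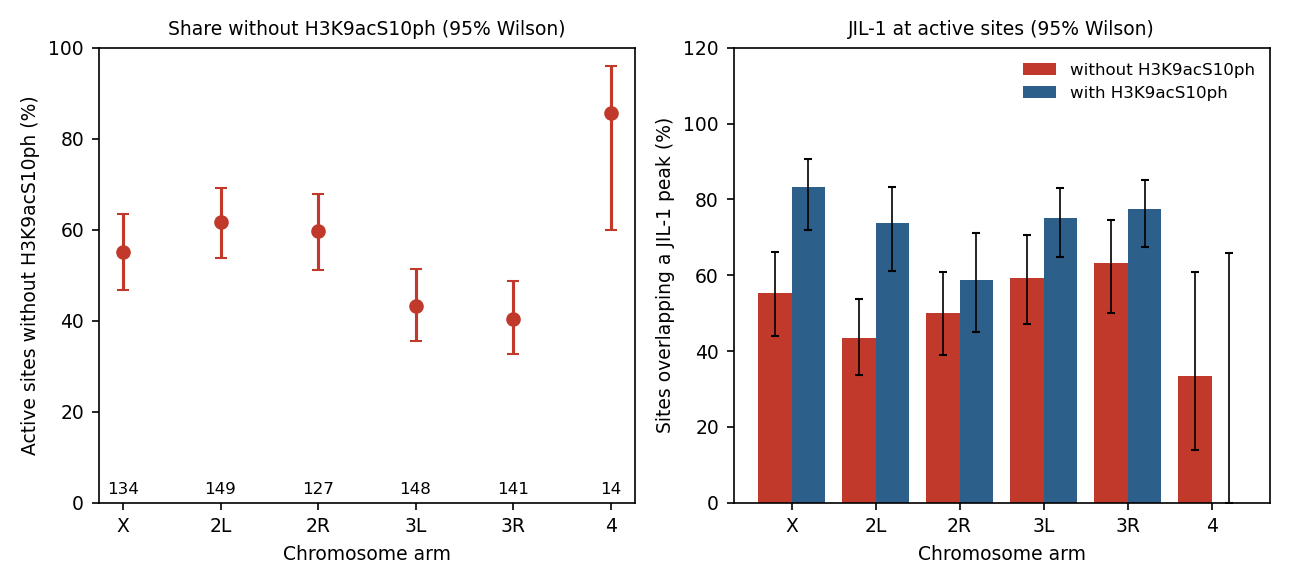
Left, share of active enhancer-type sites without H3K9acS10ph (y axis, %) on each chromosome arm (x axis), with 95% Wilson intervals and the number of active sites at the foot; right, bars for the share of sites overlapping JIL-1 (%) without and with H3K9acS10ph on the same arms, with the same intervals. The share without H3K9acS10ph runs from 40.4% on 3R to 85.7% on 4, and JIL-1 is lower without H3K9acS10ph on the 5 large arms; the value of 0 on 4 rests on 2 sites.

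Most sites stood alone by a limit of 20 kb. At 257 of 375 no other such site lay within 20 kb, and the median distance to the nearest one was 54556 bp. The rest formed 42 pairs, 10 groups of 3 and 1 group of 4, chaining sites less than 20 kb apart. The group of 4 spanned 16.9 kb of 2L from 813686 to 830558. It held no JIL-1 at any of its sites and no H3K9acS10ph peak within the span. Its sites were nearly adjacent (813686 to 816004, 816046 to 820025, 820058 to 825798 and 826005 to 830558), with the same best H3K27ac score of 1501. They are not 4 independent cases, and whether they are 1 region split by the caller was not tested. An active site with H3K9acS10ph lay within 20 kb of 60 of the 375 (16.0%). The spacing of sites scattered evenly over the arms was not calculated, so these values do not show whether sites cluster or keep apart.

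The widest sites show how varied the class is. Positions are 1-based, on scaffolds named as in release 5 of the fly genome, and genes are not named because the gene table at hand describes another release. The widest lay on 3L from 10357745 to 10370087 (12.3 kb), with 2 H3K27ac peaks over 58.1% of it, 2 weak JIL-1 peaks (highest score 83.4) and an H3K9acS10ph peak only 166 bp away. That on X from 10662651 to 10674721 lay entirely within an H3K27ac peak, which also reached an H3K4me3 peak, and JIL-1 covered 54.1% of it. That on 3L from 14211921 to 14223629 held 3 H3K27ac and 2 JIL-1 peaks, with the nearest H3K9acS10ph 40510 bp away. The site on 2L from 467291 to 478968 had no JIL-1 and carried H3K27acS28ph over 2874 bp. The site on 3R from 15448767 to 15460276 held 3 H3K27ac and 2 JIL-1 peaks, at 4201 bp from H3K9acS10ph. All 5 had a score of 3100, and 4 of them held JIL-1.

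Ranks by H3K4me1 score say little here, since 160 sites stood at or above 3100. The 4 scores above 3100 belonged to 2R:17400652-17404418 (3199), X:16500567-16502526 (3186), 2R:17734233-17737301 (3121) and 3R:10520476-10522847 (3113). Their best H3K27ac scores were 196, 190, 106 and 617, against a median of 816 over the 375 sites. JIL-1 was called at all but the third, and the X site also had H3K27acS28ph. The next in rank, 1 of many tied at 3100, was the widest site on 3L already given, with a best H3K27ac score of 3100.

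Of the 5 sites farthest from H3K9acS10ph, 4 held no JIL-1, which was also missing at 178 of all 375 sites (47.5%). Among the 65 sites at 20 kb or more, JIL-1 was called at 43.1%. The 5 farthest were X:22181-23666 (125742 bp away), X:38523-39312 (110096 bp), 2L:7570008-7572656 (109890 bp), 2R:13149296-13152870 (108168 bp) and 2R:13154756-13163174 (97864 bp). The first on 2R held 2 JIL-1 peaks with a highest score of 372, and the other 4 held none, although JIL-1 peaks lay 1411 to 6081 bp away from them. The first X site shared only 87 bp with H3K27ac. The 2 sites on X lay less than 20 kb apart, as did the 2 on 2R, so these are not 5 separate places.

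A few sites without H3K9acS10ph held JIL-1 peaks with a score of 3100, while the JIL-1 arm list reached 3228. The highest-scoring JIL-1 peaks at these sites, at 3100, touched X:7430542-7439161, 2L:67595-74083 and 2L:12520599-12526779. They were followed by 2R:12480088-12483269 (2900) and 2R:18690206-18691232 (2165). H3K9acS10ph lay 34320, 8899, 3161, 2906 and 426 bp from these, in the same order. JIL-1 overlapped the H3K27ac part in all but the third. A JIL-1 score of 3100 was reached at 3 of the 197 sites with JIL-1 (1.52%) and at 2 of the 250 sites with H3K9acS10ph and JIL-1 (0.800%), and 166 of all 12295 JIL-1 arm peaks (1.35%) had it, so the sites without H3K9acS10ph were near the background.

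Of the 9 sites with H3K27acS28ph, the widest was the 2L site from 467291 already described. The site on 3R from 21912339 to 21915649 and that on 3L from 4898470 to 4901087 also carried JIL-1, in both outside the H3K27ac part. The sites on 3R from 10925250 to 10928419 and on 4 from 154793 to 157668 did not. The H3K27acS28ph score was 59.2, 1301, 772 and 68.0 at these 4, in the order named. The site on 4 lay entirely within an H3K27ac peak that reached both H3K4me3 and H3K9acS10ph outside the site.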

How the data were processed

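Chromatin of Kc167 cells was fixed with formaldehyde, sonicated and immunoprecipitated with 1 of 6 antibodies per the labels' protocols. The submitters' processing notes name Bowtie 0.12.5 as aligner. MACS, a peak caller, appears in the name of every deposited peak. For its version and settings, an input control and the genome build, the sources used here give nothing. The authors deposited 1 peak list per sample, with other columns for start and end in bp and a score per peak, taken here as -10 times log10 of a p-value because the lowest scores were 50.0 to 50.4. Read depth is unknown, and depth and antibody efficiency move the number and width of peaks. The member sites, the comparisons and the region rule (5 widest, 5 highest H3K4me1 score, 5 farthest from H3K9acS10ph, 5 highest JIL-1 score, 5 widest with H3K27acS28ph) were chosen with earlier results of these data known. Peaks overlapped when they shared 1 bp, and distances run from edge to edge. Medians have 95% order-statistic intervals, shares Wilson and differences Newcombe intervals. No test was made. Procedures were tested on simulated data. Calculations used Python 3.11.15, numpy 2.4.6, pandas 2.3.3, scipy 1.17.1 and statsmodels 0.14.6.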

Additional observations from a re-analysis of the deposited data

Results flagged for a closer look

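The arms were the limit of the class, and 30 H3K4me1 peaks lay outside them on the assembled heterochromatin scaffolds. Of these, 5 would have been active enhancer-type sites, and all 5 lacked H3K9acS10ph. They measured 689 to 1276 bp, 1 of them carried JIL-1 and 0 carried H3K27acS28ph. They stand out only as sites beyond the comparisons on the arms. The H3K9acS10ph list held 45 peaks off the arms.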

How the results depend on the processing

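Of 66 values under 13 alternatives, 43 stayed within 1.5 times the reported count or within the reported interval and 23 moved. Only the JIL-1 difference has a sign, which it kept under 13 alternatives. Number of sites: 628 with the upper 50% of H3K9acS10ph by score and 88 with that of H3K27ac, whose scores tie at 3100. JIL-1 share: 42.8% where peaks had to share 50% of the shorter, 60.7% with the upper 50% of H3K9acS10ph, 58.0% with that of H3K27ac, 29.3% with that of JIL-1, 33.9% in 1000 bp windows and 40.3% when the JIL-1 midpoint had to lie inside. H3K27acS28ph share: 4.55% with the upper 50% of H3K27ac. Median width: 2122 bp at 0 bp and 2861 bp at 2000 bp from H3K4me3, and 3114 bp with the upper 50% of H3K9acS10ph. Median distance to H3K4me3: 3204 and 9050 bp at these limits, 2531 bp with the upper 50% of H3K27ac and 6239 bp where H3K27ac reached no H3K4me3 or H3K9acS10ph. Median distance to H3K9acS10ph: 3709, 7347, 2013 and 6348 bp in the same 4 settings, and 12301 bp with the upper 50% of H3K9acS10ph. The JIL-1 difference from sites with H3K9acS10ph ran from -26.9 to -12.4 points; it was -12.4 and -13.5 points when weighted to the width and score classes. In each setting that altered a list in the rule, the sites were defined anew; for other movements the cause was not tested. The limits to H3K27ac reach, chromosome 4, JIL-1 midpoints and weighting were chosen after seeing the data. No paired analysis was possible because each antibody had 1 library.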
